A study of Mus musculus with 4 samples.

Results

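Complement components and regulators were followed in thioglycollate-elicited peritoneal macrophages of 2 inbred mouse strains. The 9 genes were C1qa, C1qb and C1qc, C3, C4b, Cfb, Cfp, Serping1 and C3ar1. They were chosen by name for their place in the pathway, with earlier results of these data known. The array annotation gave 8 of them a probe set with a single gene symbol, among 22180 such genes in all, and C3 was not analysed here. Wild type 129S6/SvEvTac mice (129S6) and C57BL/6 mice (B6, substrain not given), aged 3 months and fed regular chow, received an intraperitoneal injection of 1 ml of 4% thioglycollate, an irritant that recruits leukocytes. Lavage cells taken after 4 days spent a night in culture with 10% serum before lysis, so the values describe plated cells. Of the 4 arrays each read 1 pool, for females and for males of either strain, and a pool combined equal amounts of RNA from 3 mice per the labels. All values are log2 probe set intensities, and a difference of 1 on this scale is a 2-fold difference.

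Complement is a chain of plasma proteins that marks surfaces for uptake and releases signals to leukocytes. The classical pathway starts when C1q, built from the A, B and C chains, binds antibody or dying cells, and it proceeds through the cleavage of C4 and C2. The alternative pathway amplifies C3 cleavage through factor B (Cfb) and is stabilised by properdin (Cfp). C1 inhibitor, the product of Serping1, blocks the C1 proteases. The receptor encoded by C3ar1 reads the fragment C3a. Most plasma complement comes from the liver, whereas macrophages are a main source of C1q and properdin and also make other components locally.

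The labelled sex and cell type were checked first. Xist, the RNA of the inactive X chromosome, read 11.86 and 11.88 in females and 3.91 and 4.05 in males. In females the genes Uty, Eif2s3y and Kdm5d of the Y chromosome read 2.24 to 4.71, and 4.71 is used below as an idea of probe background. The 11 measured of 12 macrophage markers, Adgre1, Cd68 and Csf1r among them, had a mean level of 10.67 and 10.49 in the 129S6 arrays and of 10.75 and 10.73 in the B6 arrays, with a median difference of 0.03 and none called. Their largest differences were those of Fcgr1 (1.72), Cd14 (-1.65) and Aif1 (1.07). In limma 7 of the 11 had an unadjusted p under 0.05, where 16.3% of all genes had, with 4 higher and 3 lower in B6. The median near 0 thus holds differences in both directions.

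Among the 8 measured genes, C4b was lower in B6 and Serping1 came close to the threshold in the same direction. Cfb and Cfp also read lower in both B6 arrays, and the 3 C1q chains and C3ar1 read higher in both, but none of these 6 passed the test. In limma, with strain and sex as additive terms and Benjamini-Hochberg adjustment over all genes, 1 of the 8 was called at an adjusted p under 0.05 (C4b, adjusted p = 0.0438). Of all genes 0.852% were called, 0.338% as higher and 0.514% as lower in B6. At an unadjusted p under 0.05 there were 5 of 8 members, against 16.3% of all genes and 17.9% of the genes with a mean level of at least 6. Of these 5 members 4 were lower in B6 (9.36% of all genes) and 1 was higher (6.99% of all genes). The B6 and the 129S6 arrays did not overlap for any of the 8 members, which held for 48.9% of all genes and for 57.3% of the genes with a mean level of at least 6. Both B6 arrays were above for 4 members (22.8% of all genes) and below for 4 (26.1% of all genes). The median difference of the members was -0.22, and that of all genes was -0.02. In bulk RNA, fewer cells of a type and less RNA per cell cannot be told apart.

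**Figure D1:**
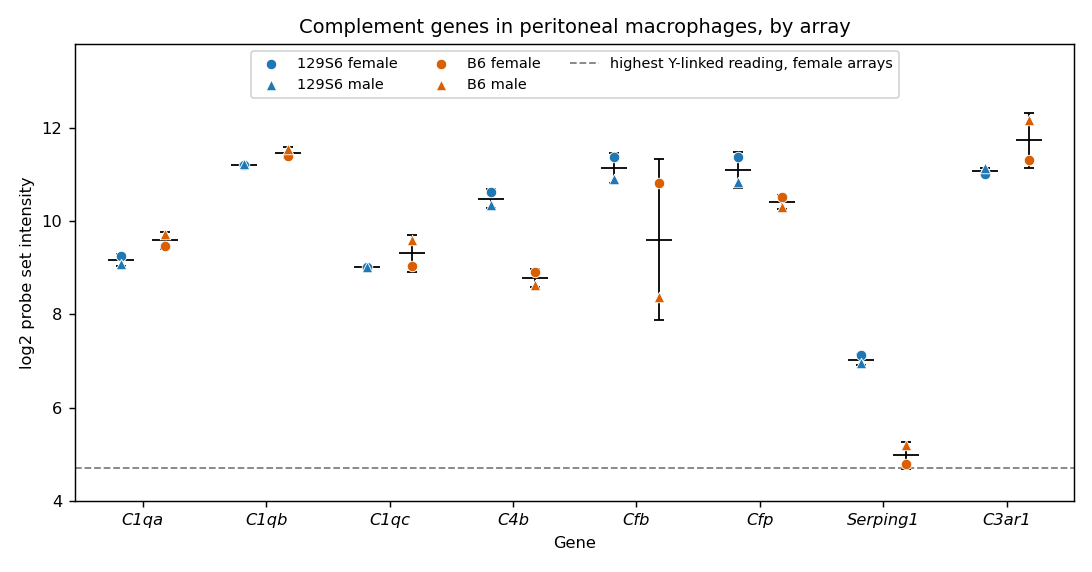
Log2 probe set intensity (y axis) of the 8 measured complement genes (x axis) in the 4 arrays, 129S6 in blue and B6 in orange, with circles for female and triangles for male pools. Black bars are the strain mean and the SD of 2 arrays, and the dashed line is the highest reading of Y-linked genes in the female arrays (4.71). The B6 points of C4b and Serping1 stand clear of those of 129S6, and the B6 points of Cfb lie far apart.

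The 3 chains of C1q, the recognition unit of the classical pathway, lie side by side on chromosome 4 and read slightly higher in B6. C1qa, the A chain, stood at 9.26 in the 129S6 female, 9.08 in the 129S6 male, 9.47 in the B6 female array and 9.72 in the B6 male. C1qb, the B chain, stood at 11.20, 11.23, 11.39 and 11.54 in the same order. C1qc, the C chain, stood at 9.02, 9.01, 9.03 and 9.59. The B6 male array was the highest for all 3 chains, and for C1qc the B6 female array was level with 129S6. The strain difference was 0.43 ± 0.19 (SE) for C1qa (limma adjusted p = 0.369), 0.26 ± 0.16 for C1qb (adjusted p = 0.495) and 0.30 ± 0.21 for C1qc (adjusted p = 0.545). The 95% intervals of the single differences ran from -0.09 to 0.94, from -0.17 to 0.69 and from -0.27 to 0.87. Without the B6 male array C1qc had 0.02 and without the B6 female array 0.58. By the distance between their centred values over the 4 arrays, C1qb ranked 846 among 22179 other genes by nearness to C1qa (the nearest 3.81%), and C1qc ranked 1537 (the nearest 6.93%). From C1qc, C1qa ranked 1208 (5.45%) and C1qb 1402 (6.32%). From C1qb the ranks were lower, 3162 for C1qa (14.3%) and 5116 for C1qc (23.1%). Many genes that differ little between the arrays lie close together by this measure, so the ranks describe small deviations.

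The neighbouring genes C1qb and C1qc had a strain difference of the same sign that did not pass for either. Their RefSeq promoters are shown, since both were matched. Each runs from 250 bases before to 50 bases after the start site in GRCm38.p6, the C57BL/6J reference, on the minus strand (C1qb at chr4:136886151-136886450, C1qc at chr4:136892865-136893164). Capitals mark matches, on either strand, to 4 motifs: GAGGAA, the core of sites bound by PU.1, a factor of the myeloid lineage; TGCTGA, part of the recognition element of Maf factors; TTCNNNGAA, the GAS element of STAT factors; and GAAA, any 2 bases and GAAA again, the core of the interferon-stimulated response element.
C1qb: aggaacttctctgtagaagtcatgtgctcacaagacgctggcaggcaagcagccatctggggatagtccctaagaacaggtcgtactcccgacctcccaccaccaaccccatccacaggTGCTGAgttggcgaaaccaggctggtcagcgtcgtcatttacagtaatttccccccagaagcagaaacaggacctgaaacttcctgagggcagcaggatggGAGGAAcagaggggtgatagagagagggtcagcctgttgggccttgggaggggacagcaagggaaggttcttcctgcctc
C1qc: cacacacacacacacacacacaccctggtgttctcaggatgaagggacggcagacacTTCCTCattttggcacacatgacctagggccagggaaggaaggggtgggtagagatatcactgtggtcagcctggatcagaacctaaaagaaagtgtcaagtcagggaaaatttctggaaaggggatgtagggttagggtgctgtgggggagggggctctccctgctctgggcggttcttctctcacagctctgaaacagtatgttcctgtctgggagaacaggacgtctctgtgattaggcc
The C1qb promoter held a GAGGAA at position -30 and a TGCTGA at position -131 from the start site, and that of C1qc a GAGGAA on the opposite strand, its match beginning at position -193. None overlapped another. Of 32851 promoters of this length, 28.3% held GAGGAA, 19.5% TGCTGA, 8.3% the GAS letters and 3.44% the interferon element, so these matches are common and describe letters, not binding.

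C4b encodes complement C4, which is cleaved by the C1 complex and attaches covalently to nearby surfaces. It was the member whose strain difference passed. It stood at 10.62 in the 129S6 female and 10.34 in the 129S6 male array, and at 8.91 in the B6 female array and 8.64 in the B6 male. The groups were far apart, and the difference was nearly equal in females (-1.70) and males (-1.69). The 129S6 mean was 10.48 ± 0.20 (SD, n = 2) and the B6 mean 8.78 ± 0.19, a 3.25-fold lower level in B6 (difference -1.70 ± 0.15 (SE), limma adjusted p = 0.0438). The call did not hold without the 129S6 female (-1.56, adjusted p = 0.0851) or the B6 male array (-1.56, adjusted p = 0.0531), fits that also lacked the sex term. C4b has a near-identical copy, C4a, which encodes the sex-limited protein, and the probes may read both. The C4a probe set read 4.17 and 4.47 in 129S6 and 3.26 and 3.56 in B6, all under the background value, with a difference of -0.92 that did not pass (adjusted p = 0.114).

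C4b belongs to the class III region of the major histocompatibility complex on chromosome 17, with C4a, Cfb and C2, in a run of 15 annotated genes. C4a (-0.92, under background in every array) and Cfb read lower in B6 as C4b did, without overlap of the groups. The difference of C2 was small and of the other sign, and of these genes only C4b passed. C2, the protease that pairs with C4b, stood at 5.74 and 5.16 in 129S6 and at 5.94 and 5.60 in B6, with overlapping groups and a difference of 0.32 ± 0.17 (adjusted p = 0.427) that ranged from 0.03 to 0.61 with an array left out, lowest without the 129S6 male and highest without the 129S6 female. Cfb, the corresponding protease of the alternative pathway and the gene next to C2 but for a microRNA, had -1.54.

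Cfb had the widest spread of the 8 genes within a strain, between the B6 arrays. It stood at 11.38 in the 129S6 female, 10.91 in the 129S6 male, 10.82 in the B6 female array and 8.38 in the B6 male. The B6 male array was far below the other 3, which lay within a narrow range, and the B6 female array was just under the 129S6 male array. The difference was -0.56 in females and -2.53 in males, and the fitted difference of -1.54 ± 0.51 (SE) did not pass (adjusted p = 0.270). Without the B6 male array it was -0.32 (adjusted p = 0.744), and without the B6 female array it was -2.76 and passed (adjusted p = 0.0120). Within B6 the male array was lower than the female by 2.44, a difference reached by 0.104% of all genes and by 0.236% of those with a mean level of at least 6. This comparison was chosen after the value was seen.

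Cfb is known to be induced by interferons and by Toll-like receptor signals. The 21 measured of 24 type I interferon-stimulated genes had a mean level of 7.92 and 7.95 in the 129S6 arrays, 9.57 in B6 females and 7.79 in B6 males. Their median male-minus-female difference over both strains was -0.88. The 13 measured of 14 interferon gamma-inducible genes had 7.32, 7.26, 8.44 and 7.52. The B6 female array was the highest of the 4 for both lists and the third highest for Cfb. The B6 male array was the lowest for Cfb and for the type I list. The part of interferon-stimulated expression in the Cfb values was not tested.

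Cfp encodes properdin, which stabilises the C3 convertase of the alternative pathway, and lies on the X chromosome. It stood at 11.38 in the 129S6 female, 10.83 in the 129S6 male, 10.52 in the B6 female array and 10.31 in the B6 male. Both B6 arrays were below both 129S6 arrays, and within each strain the male array was lower, by 0.55 in 129S6 and by 0.21 in B6. The 129S6 mean was 11.10 ± 0.39 (SD, n = 2) and the B6 mean 10.41 ± 0.15. The strain difference of -0.69 ± 0.18 (SE) did not pass (adjusted p = 0.198). Leaving out an array moved it between -0.96 and -0.41, the smaller value without the 129S6 female array, and among the alternatives it passed only when the variance prior followed the level (adjusted p = 0.0264).

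Serping1, the gene of C1 inhibitor, had the largest difference of the 8 in size. It stood at 7.12 in the 129S6 female and 6.95 in the 129S6 male array, and at 4.78 in the B6 female array and 5.19 in the B6 male. The groups were far apart, and the B6 values lay close to the background value of 4.71. The 129S6 mean was 7.03 ± 0.12 (SD, n = 2) and the B6 mean 4.98 ± 0.29, a measured 4.14-fold lower level in B6. The difference of -2.05 ± 0.21 (SE) fell just short (adjusted p = 0.0531). It passed without the sex term (adjusted p = 0.0160) and with a prior that followed the level (adjusted p = 0.00573). Among the genes with a mean of at least 6 it had an adjusted p of 0.0171, but Serping1 met that filter only through its 129S6 values. With probe sets averaged the adjusted p was 0.0498, although Serping1 has 1 probe set and its own values did not change. Leaving out an array moved the difference between -2.25 and -1.84. Serping1 and C4b were the 2 of 8 members that differed at least 2-fold the same way in both sexes, as 2.77% of all genes did, and both were lower in B6, as 1.72% of all genes were.

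**Figure D2:**
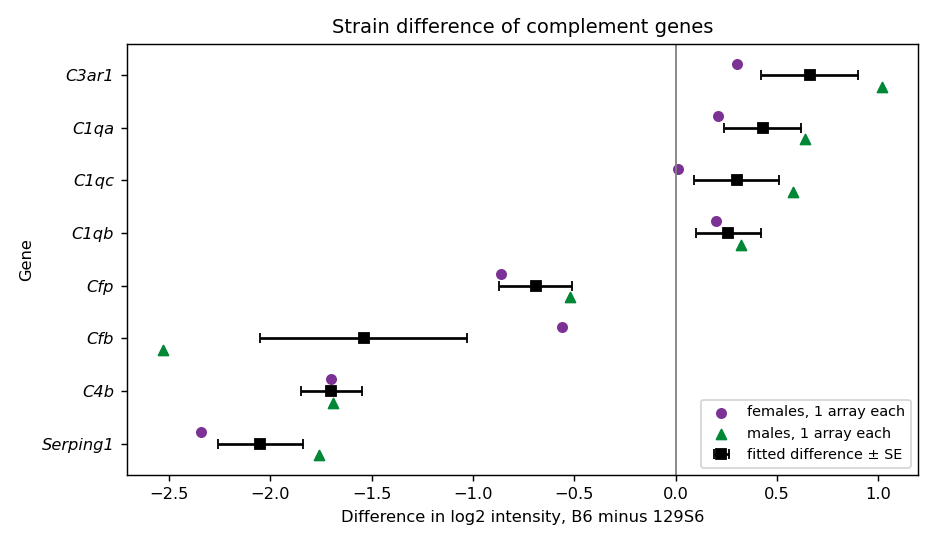
Difference in log2 intensity between B6 and 129S6 (x axis) for each measured complement gene (y axis). Squares with bars are the fitted difference and its SE, circles the difference between the female arrays and triangles that between the male arrays. C4b has nearly equal values in the sexes (-1.70 and -1.69), and Cfb has values of -0.56 and -2.53.

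C3ar1, the receptor for C3a, read higher in both B6 arrays. It stood at 11.02 in the 129S6 female, 11.13 in the 129S6 male, 11.32 in the B6 female array and 12.16 in the B6 male. The B6 male array stood apart and the other 3 lay close together. The difference was 0.30 in females and 1.02 in males, and the fitted value of 0.66 ± 0.24 (SE) did not pass (adjusted p = 0.296). Without the B6 male array it was 0.24 and without the B6 female array 1.08, and neither passed.

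The genes of the receptors for C5a, the other small peptide released by the cascade, ran in the same direction as C3ar1. C5ar1, the signalling C5a receptor, stood at 8.19 and 8.22 in 129S6 and at 8.98 and 9.19 in B6, with a difference of 0.88 ± 0.16 (SE) that did not pass (adjusted p = 0.126), but it did when the variance prior followed the level (adjusted p = 0.0129) and among genes with a mean of at least 6 (adjusted p = 0.0348). C5ar2, the second C5a receptor, stood at 5.55 and 5.48 in 129S6, 6.42 in the B6 female array and 8.08 in the B6 male. As for C3ar1, the B6 male array was the highest. The C5ar2 difference of 1.73 ± 0.45 did not pass (adjusted p = 0.203), but it did without the B6 female array (2.56, adjusted p = 0.00891), and it was 0.90 without the B6 male array.

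Cfp and C3ar1 had opposite directions in B6, and neither was called. Their promoters, the others matched for measured members, were cut and marked as those of C1qb and C1qc were. Both lie on the minus strand (Cfp at chrX:20931506-20931805, C3ar1 at chr6:122856108-122856407).
Cfp: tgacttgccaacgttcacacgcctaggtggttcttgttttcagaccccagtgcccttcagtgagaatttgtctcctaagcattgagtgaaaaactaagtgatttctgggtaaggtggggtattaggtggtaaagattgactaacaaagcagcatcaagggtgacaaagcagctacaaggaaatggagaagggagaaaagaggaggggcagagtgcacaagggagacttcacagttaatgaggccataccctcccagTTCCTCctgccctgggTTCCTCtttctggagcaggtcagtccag
C3ar1: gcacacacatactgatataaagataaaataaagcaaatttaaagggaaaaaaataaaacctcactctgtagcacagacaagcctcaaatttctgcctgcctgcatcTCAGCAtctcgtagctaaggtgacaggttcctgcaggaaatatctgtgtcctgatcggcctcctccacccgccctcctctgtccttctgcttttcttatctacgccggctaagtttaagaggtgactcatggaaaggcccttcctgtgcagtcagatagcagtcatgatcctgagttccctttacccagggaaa
The Cfp sequence held GAGGAA on the opposite strand at positions 7 and 23, after the start site, and that of C3ar1 held TGCTGA on the opposite strand at position -144. No promoter of these 4 members held the GAS or the interferon letters in this window. Promoters were matched for 5 of the 9 members. C3, not measured here, was the fifth, and C1qa, C4b, Cfb and Serping1 were not matched.

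The sex comparison took male minus female in the same fit. None of the 8 members was called, where 0.0135% of all genes were, and 1 of the 8 (Cfb) had an unadjusted p under 0.05, where 5.22% of all genes had. Cfb had a male-minus-female difference of -1.46 ± 0.51 (SE, adjusted p = 0.860), which was -0.47 in 129S6 and -2.44 in B6. For the other 7 members it ran from -0.38 (Cfp) to 0.48 (C3ar1). A difference between the sexes in the strain effect could not be tested, since each strain and sex had a single array. As the strains did not overlap for any of the 8 members, their strain differences necessarily had the same sign in both sexes.

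**Figure D3:**
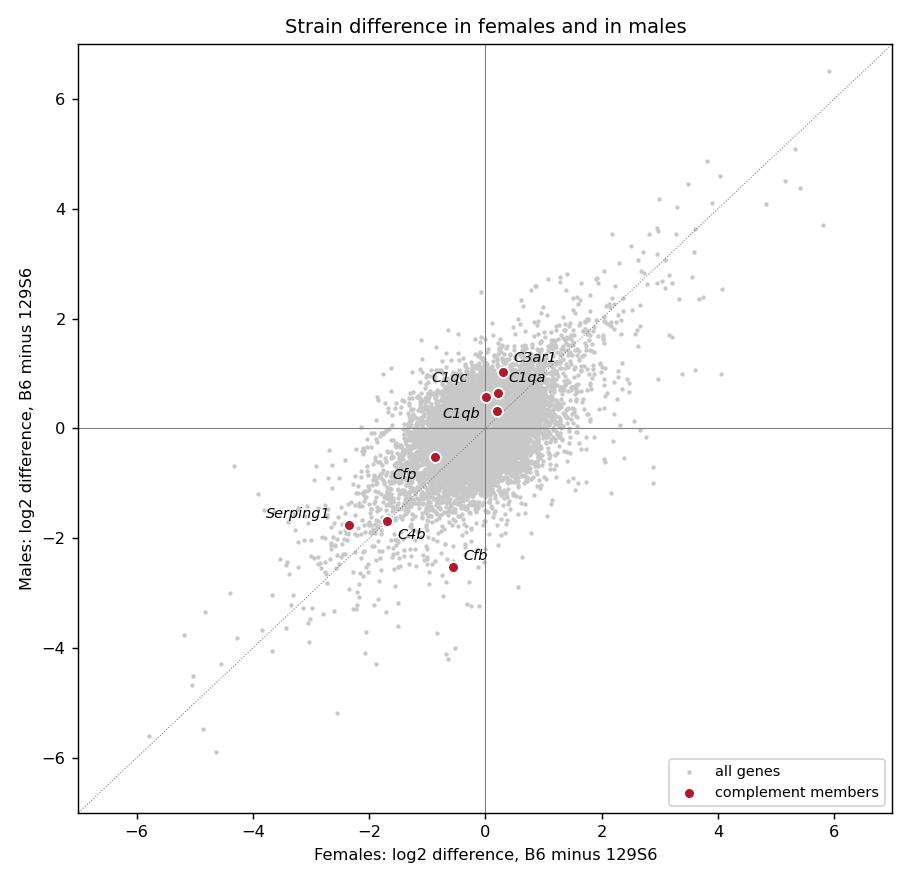
Strain difference in log2 intensity (B6 minus 129S6) in females (x axis) against that in males (y axis), for all 22180 genes in grey and the 8 measured complement genes in red, with the dotted line marking equal values. C4b lies on the dotted line (-1.70 and -1.69), Serping1 somewhat above it and Cfb well below it.

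Of the other complement genes, 44 of 49 listed were measured and none was called with limma. An unadjusted p under 0.05 was found for 13 of the 44, where 16.3% of all genes had one, with 10 lower (9.36% of all genes) and 3 higher in B6 (6.99%), and the median difference of all 44 was -0.10. Many of these genes read low, and 23 of the 44 had all 4 arrays at or under the background value. These included 6 of 7 genes of the terminal pathway, which forms the membrane attack pore, and 5 of 7 of the lectin pathway. Fcna, which encodes the macrophage lectin ficolin A, was the bright gene of the lectin group, at 9.59 and 9.33 in 129S6 and 9.50 and 9.21 in B6, with overlapping groups. The largest differences of the lectin group were those of Masp1 (-0.46), Colec10 (0.19) and Mbl2 (0.16), and of the terminal group those of C9 (-0.46), C6 (-0.27) and C8a (-0.26). Among the 21 genes above background in at least 1 array, 9 had an unadjusted p under 0.05, 6 lower and 3 higher in B6. The median difference of the 21 was -0.18. Of all genes with a mean level of at least 6, 17.9% had such a p, but that is another filter. A gene could be among the 21 through 1 strain alone, so the 2 shares are not compared.

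Among classical pathway proteases, C1rl, a relative of C1r, stood at 8.25 and 8.45 in 129S6 and at 7.35 and 6.43 in B6. The groups did not overlap, and the difference of -1.46 ± 0.31 (SE) did not pass (adjusted p = 0.158). The difference passed when the variance prior followed the level (adjusted p = 0.0297) and without the B6 female array (-1.91, adjusted p = 0.0192). C1ra stood at 5.41 and 5.56 in 129S6 and at 5.05 and 4.15 in B6, without overlap (-0.89, adjusted p = 0.279). C1s2 (-1.10, adjusted p = 0.175) and C4a (-0.92) had all values under background. The 2 probe sets of C1s1, the C1s protease, disagreed (0.18 and -1.21) and were also dim.

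Among the soluble regulators, Clu, which encodes clusterin, an inhibitor of the terminal complex, came nearest to a call. It stood at 6.23 and 6.00 in 129S6 and at 4.79 and 4.34 in B6, where it was near background. The difference was -1.54 ± 0.16 (SE, adjusted p = 0.0566), and it passed when the variance prior followed the level (adjusted p = 0.0129), without the sex term (adjusted p = 0.0345) or without the B6 female array (-1.77, adjusted p = 0.0239). Vtn (-0.41) and Cfi (0.20) were dim and did not pass.

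Among the membrane regulators, which protect the cell's own surface, Cd55, the decay-accelerating factor, was high in a single array. It stood at 6.12 in the 129S6 female and at 4.76, 4.02 and 4.29 in the 129S6 male, B6 female and B6 male arrays (-1.28 ± 0.43, adjusted p = 0.275). Without the 129S6 male array it had -1.96 and passed (adjusted p = 0.0353), and without the 129S6 female array it had -0.61 (adjusted p = 0.401). Cd46 had 0.59 (adjusted p = 0.242) and Csmd1 -0.24. Cr1l, the rodent regulator Crry, read 8.30 to 8.59, with both B6 arrays slightly below and an interval of the difference from -0.62 to 0.23.

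Itgam and Itgax, the alpha chains of complement receptors 3 and 4, which bind the C3 fragment iC3b, both read lower in B6. Itgam stood at 12.06 and 11.77 in 129S6 and at 10.88 and 11.21 in B6 (-0.87 ± 0.22, adjusted p = 0.192), and Itgax had -0.78 ± 0.16 (adjusted p = 0.142). The shared beta chain, Itgb2, lay between 12.38 and 12.53 in all arrays. The groups did not overlap for either alpha chain. Both passed when the variance prior followed the level (adjusted p = 0.0300 for Itgam and 0.00879 for Itgax), and Itgax also among genes with a mean of at least 6 (adjusted p = 0.0387).

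**Figure D4:**
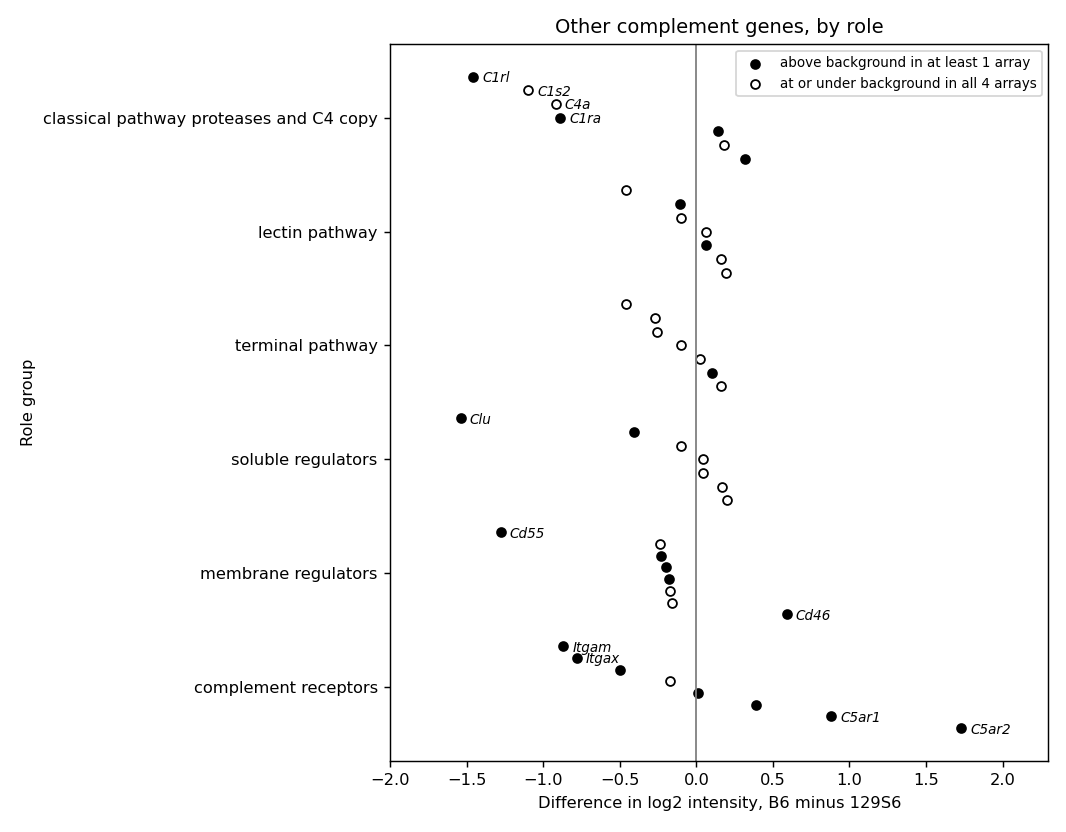
Difference in log2 intensity between B6 and 129S6 (x axis) of the 44 other measured complement genes in 6 role groups (y axis), with filled points for genes above background in at least 1 array and open points for those at or under it in all 4. Clu (-1.54) and C1rl (-1.46) lie furthest to the left and C5ar2 (1.73) furthest to the right, and none passed the test.

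Markers of other cells differed between the strains alongside C4b and Serping1. Fibroblasts are also known to make C4, C1 inhibitor and the C1 proteases. The 8 fibroblast markers had a mean level of 8.09 and 7.91 in 129S6 and of 5.63 and 6.24 in B6, with a median difference of -2.29, and for 7 of the 8 both B6 arrays were below both 129S6 arrays, as they were for 26.1% of all genes. Dcn (-2.67), Sparc (-2.61) and Pdgfra (-3.01) were called lower in B6, as 0.514% of all genes were. Bgn (-2.64) was not called. Lum, the marker of the 8 whose groups overlapped, read 3.68 to 4.05 in all arrays, under background. The 14 markers of resident large peritoneal macrophages had a mean level of 10.09 and 9.64 in 129S6 and of 8.04 and 7.86 in B6. Of the 14, 4 were called lower, where 0.514% of all genes were: Serpinb2 (-5.26), Alox15 (-4.09), Cxcl13 (-3.30) and Prg4 (-2.28). Both B6 arrays were below both 129S6 arrays for 12 of the 14 and above them for Lbp (0.74) and Cd9 (0.25), which did not pass. Between the B6 arrays, the female was lower for Serping1 (4.78 against 5.19) and for the mean of the fibroblast markers (5.63 against 6.24). The male was lower for C4b (8.64 against 8.91) and for the mean of the resident macrophage markers (7.86 against 8.04). These gaps are small beside the strain differences, and each rests on 1 array per sex. The part of either cell population in the C4b and Serping1 differences was not tested.

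Of the 10 markers of monocyte-derived macrophages 2 were called higher in B6 (0.338% of all genes), Retnla (3.30) and Mrc1 (2.80). Vcan (-2.36) was the 1 called lower (0.514% of all genes), and the median difference of the 10 was 0.16. Ly6c2 had -2.62 and did not pass (adjusted p = 0.0527). The 7 lists of mesothelial, B, T, mast and dendritic cells, neutrophils and eosinophils had 38 of 40 genes measured and a median difference of -0.08. In these 7 lists 1 of the 38 genes was called, where 0.852% of all genes were. It was Siglecf, higher in B6 (1.88), and the next largest difference was that of S100a8 (-1.40, adjusted p = 0.0585). The mean level of the 7 lists was between 4.79 and 4.93 in the 4 arrays. The median differences of the interferon lists were 0.59 for type I and 0.58 for interferon gamma. Cxcl9 was called higher in B6 (2.03), as 0.338% of all genes were, and the largest type I difference was that of Ifit2 (2.52, adjusted p = 0.245).

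**Figure D5:**
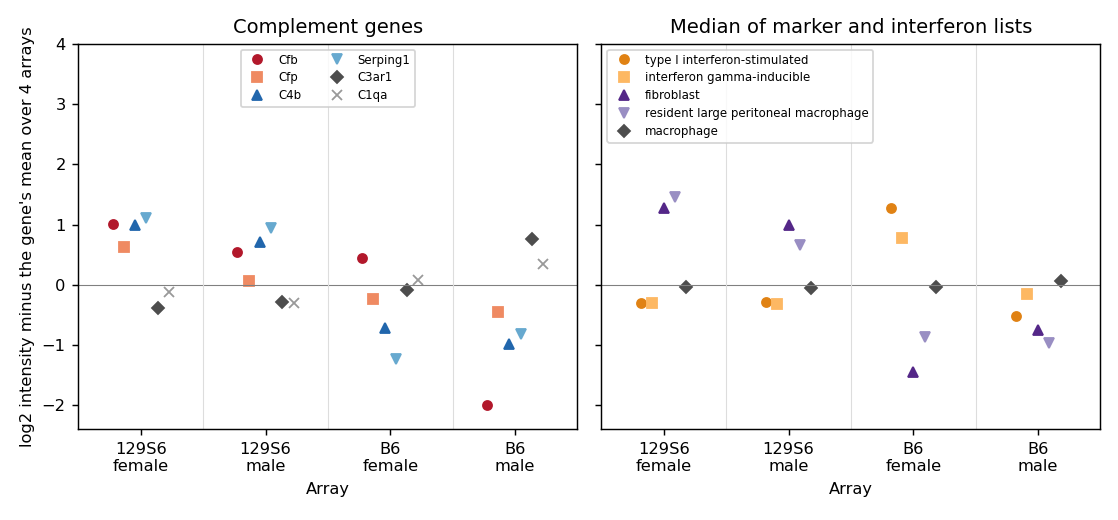
Log2 intensity minus the mean over the 4 arrays (y axis), by array (x axis), for 6 complement genes (left) and as the median over the genes of 5 marker and interferon lists (right). Cfb is low in the B6 male array only, and the interferon lists are high in the B6 female array. The fibroblast and resident macrophage lists are lower in both B6 arrays. The median of the macrophage list stays near 0, with single genes differing both ways.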

How the data were processed

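Pooled macrophage RNA was read on Affymetrix mouse gene arrays. The values were deposited as log2 intensities per probe set, computed by the authors in Expression Console; its version, summarization and background correction are not given in the sources used here. They ran from 0.79 to 13.81 with array medians of 4.85 to 4.87, and no further normalization was applied. Of 41345 probe sets, 23521 had a single gene symbol, and the probe set with the highest mean was kept per gene, which left 22180 genes.

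Strain (B6 minus 129S6) and sex (male minus female) were fitted together with limma 3.58.1 in R 4.3.3 (lmFit, eBayes), with 1 residual and 3.18 prior degrees of freedom. The p-values were adjusted over all genes by Benjamini-Hochberg, and genes under 0.05 were called. They measure only the spread between these pools, and a gene's own spread is how far its female and male strain differences lie apart. An exact permutation test of 2 against 2 arrays, two-sided, could not go below 0.333. The fitting steps were run on simulated data with the same spread for every gene. Real spreads differ between genes, so this does not measure how reliable the calls are. Arrays give no count depth; their number limits the precision.

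The methods text of the study gives more mice per pool than the labels, whose number is used here. The members, gene lists and tests were chosen with earlier results of these data known. Named were all members, and of each role group of other complement genes and each marker or interferon list the called genes and up to 3 with the largest difference (fewer for lists of cells other than macrophages and fibroblasts and for interferon lists); C1qa, C1qb and C1qc were ranked among all genes by the distance of their centred values. Fcna, Cr1l, Itgax, Itgb2, Lum, Lbp, Cd9, C2, C1s1 and C1ra were named after their values were seen. Alternatives were a prior that followed the level, a filter on dim genes, no sex term, other normalizations, other probe set rules, and leaving out each array. Promoters came from RefSeq (GRCm38.p6). Whether probes match both strains equally was not tested.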

Additional observations from a re-analysis of the deposited data

Results flagged for a closer look

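For 5 named genes the strain difference (B6 minus 129S6) ran in opposite directions in females and in males, a difference that was not tested and that rests on 1 array per strain and sex. Of these, 4 read at or under the background value of 4.71 in every array. Colec10, a collectin of the lectin pathway, had -0.12 in females and 0.50 in males. Mbl2, a mannose-binding lectin, had -0.16 and 0.48. Cfi, the factor I protease, had 0.46 and -0.06. C1s1 had -0.34 and 0.70. The fifth, Itgb2, was bright and had -0.10 and 0.12. No member gene had opposite signs, which follows from the lack of overlap between the strains.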

How the results depend on the processing

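All members kept their direction under every alternative run. With an array left out, this followed from the lack of overlap between the strains for every member. A changed prior, the filter or the sex term leaves the difference itself unchanged. The number of genes called for strain (189) was 1256 when the variance prior followed the level, 712 among genes with a mean of at least 6 and 431 without the sex term, and 84 to 564 with an array left out, lowest without the 129S6 female array. The number of members called (1) was 3, 2 and 2 under the first 3 of these, 2 with the probe sets of a gene averaged, and 0 to 3 with an array left out. With the filter on dim genes and with probe sets averaged, the added member was Serping1, whose own values did not change. The other normalizations kept both counts within 1.5 times. For sex, 3 genes were called, 5 with the prior that followed the level and 0 with any array left out, in fits without the strain term, and 0 members under each setting. Among the named genes, 7 changed sign with an array left out, none of them a member and none past the threshold: Colec10 ranged from -0.17 (without the 129S6 male) to 0.54, Mbl2 from -0.06 (without the 129S6 male) to 0.38, Cfi from -0.12 (without the 129S6 female) to 0.51, C1s1 from -0.20 (without the B6 male) to 0.57, Fcna from -0.25 to 0.04, Itgb2 from -0.07 to 0.08 and Lum from -0.06 to 0.23. C1s1 also had -0.51 with its probe sets averaged, and Itgb2 -0.01 after quantile normalization. Of the 12 marker and interferon genes named and called, 8 kept the call whichever array was left out. Serpinb2 lost it without either 129S6 array, Siglecf without the 129S6 female, Vcan without the B6 male and also without the 129S6 female, and Cxcl9 whichever of the 4 was left out. The strain fits with an array left out lacked the sex term, so a lone array is assumed to vary like the others. With 1 array per strain and sex, the sex term of the main fit already pairs the arrays by sex. No other pairing was possible because the labels number no replicates.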
